A study of Mus musculus with 12 samples.

Results

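Autophagy and lysosome genes were followed through the 2 RNA-seq comparisons of mouse muscle stem cells (MuSCs). The members were chosen by gene symbol alone: the Atg genes, Becn1, Ulk1 to Ulk3, the Map1lc3 and Gabarap genes and Sqstm1 for autophagy, the Atp6v genes for the vacuolar proton pump (v-ATPase), the cathepsins (Cts with 1 letter), and Lamp1 to Lamp3 with Tfeb and Tfe3. This gave 63 of the 17505 genes listed in either table, of which 57 were listed in both. They comprised 28 autophagy genes, 20 v-ATPase genes (the pseudogene Atp6v0c-ps2 among them), 11 cathepsins and 4 genes of the Lamp and Tfe group. Lamp3 and Ctss, a cathepsin of leukocytes, were listed in neither table.

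Autophagy encloses cytoplasm in a double membrane and delivers it to the lysosome. Ulk kinases start the process, a lipid kinase complex with Becn1 marks the membrane, Atg9 and Atg2 proteins bring it lipid, and a ubiquitin-like cascade of Atg7, Atg3, Atg10, Atg5, Atg12 and Atg16l1 attaches Atg8 proteins (the Map1lc3 and Gabarap families) to it. The lysosome is acidified by the v-ATPase, which has a membrane sector (V0) that conducts protons and a cytosolic sector (V1) that splits ATP. Cathepsins are proteases that work at that acid pH, Lamp1 and Lamp2 are the major glycoproteins of the lysosomal membrane, and Tfeb and Tfe3 are transcription factors of lysosomal and autophagy genes. Autophagy is known to be needed for the upkeep of quiescent MuSCs.

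In the first comparison, MuSCs were sorted from WT mice 04, 05 and 06 and sequenced fresh, and cells of the same 3 mice were sequenced after 3 days of culture as myoblasts, in Ham's F10 medium with FBS and bFGF. In the second, MuSCs of 3 WT mice were set against MuSCs of 3 Nedd4L-cKO mice (Nedd4L fl/fl Pax7 cre/+, C57BL/6 background), all 6 of them male and 5 to 6 weeks old, with 1 library a mouse. Exon 15 of the ubiquitin ligase gene Nedd4L is removed wherever Pax7 drives Cre, thus in MuSCs and also in the fibers that arise from them, and the gene is still transcribed. Whether the WT mice carried either allele is not given in the sources used here. All fresh MuSCs were sorted as ITGA7+, Hoechst+ cells without CD31, CD45, CD11b or SCA1, and each of the 12 libraries was made from 1000 cells with SMART-seq.

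Values are normalized counts that the authors scaled between libraries, given here as RPM, scaled in each table to the mean total of its 6 libraries, and the read depth behind them is unknown. Totals were 33189802 to 37595659 normalized counts in the first table and 40323468 to 50687122 in the second. The sorted identity was checked on Pax7, the transcription factor that marks MuSCs, which was at 151 to 249 RPM in fresh MuSCs, 17.8 to 21.2 RPM in myoblasts, 183 to 302 RPM in WT and 156 to 202 RPM in Nedd4L-cKO MuSCs. The targeted gene Nedd4l was at 70.2, 96.5 and 66.7 RPM in WT and 30.2, 36.3 and 22.5 RPM in Nedd4L-cKO MuSCs (log2 fold change -1.37 ± 0.28 SE, adjusted p = 0.0467). In these bulk samples, fewer cells of a type and less RNA per cell cannot be told apart.

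Between myoblasts and fresh MuSCs, the widest changes among the members were in the cathepsins, and cathepsins as well as Lamp genes changed in opposite directions within their family. Ctsd rose 5.97-fold while Ctso fell 10.9-fold and Ctsz 3.46-fold, and Lamp1 rose 2.72-fold while Lamp2 fell 2.63-fold. Of 61 tested members, 58 reached the filter of 10 normalized counts in libraries of both groups, and of these 9 rose and 16 fell at an adjusted p of at most 0.05, against 40.4% of 14491 such genes called in either direction (19.6% higher and 20.7% lower). By class, 10 of 27 autophagy genes changed (3 higher, 7 lower), 6 of 18 v-ATPase genes (2 higher, 4 lower), 6 of 9 cathepsins (2 higher, 4 lower) and 3 of 4 genes of the Lamp and Tfe group (2 higher, 1 lower). The v-ATPase counts include the pseudogene Atp6v0c-ps2, which was called lower. The other 3 members, Atg9b, Atp6v1c2 and Ctsw, passed the filter only through the myoblast libraries and so had to differ. They are left out of these counts, a choice made after the data were seen. With them 28 of 61 were called (12 higher), against 42.8% of all 15345 tested genes (22.2% higher, 20.6% lower), and the counts below under other settings include them. The median log2 fold change was -0.10 over the 58 members and 0.00 over the 14491 genes. The 3 MuSC values did not overlap the 3 myoblast values for 34 of the 58, 15 of them higher and 19 lower in myoblasts (such genes in all: 52.5%, of which 25.5% higher and 27.0% lower). Calls with a change of at least 1 on the log2 scale were made for 13 of the 58 members (22.4%), against 30.6% of the 14491 genes. For a single gene with 3 libraries a group, the exact permutation test cannot go below p = 0.1, so calls rest on the limma fit over all genes. Scaling each library to its own total moved the median of all genes from 0.04 to 0.14. Under that scaling 15 members were called higher and 12 lower. The part of the called members that was higher was then 55.6%, where it was 42.9% of the 28 under the authors' scaling. Of all 15345 tested genes, 6594 were called with own totals. Leaving out MuSC 05, myoblast 05 or myoblast 06 left 18, 17 and 17 members called, with 7 autophagy and 3 v-ATPase genes among them each time. Calls over all tested genes fell as well, to 5026 of 14941, 4598 of 14474 and 4795 of 14394, from 6566 of 15345 with every library. Without MuSC 06 the v-ATPase calls were also 3, and 5178 of 14892 genes were called.

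**Figure D1:**
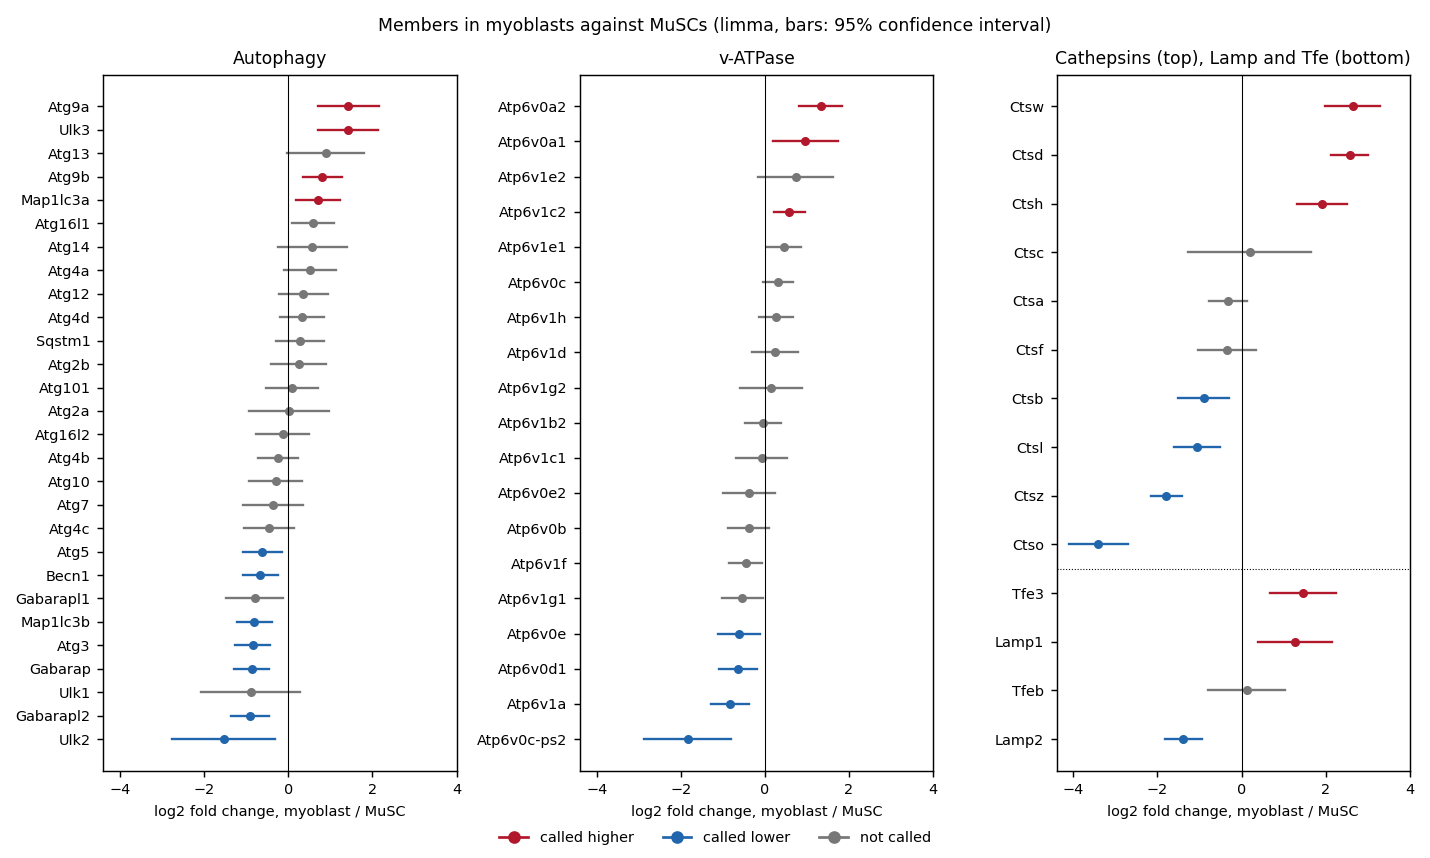
Log2 fold change of each tested member between myoblasts and fresh MuSCs (x axis), sorted within class, with bars for the 95% confidence interval. Red and blue points were called higher and lower. Leaving out Ctsw, cathepsins spread from -3.41 (Ctso) to 2.57 (Ctsd), wider than the autophagy genes, which lay between -1.54 (Ulk2) and 1.42 (Atg9a). Atg9b, Atp6v1c2 and Ctsw are also drawn in red. They passed the filter only through the myoblasts and so had to differ. Ctsw was listed at 0 in MuSCs, so its drawn value depends on the pseudocount of 1 RPM.

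The cathepsins were led in fresh MuSCs by Ctsz and Ctsb and in myoblasts by Ctsd. Ctsd, the main aspartic protease of the lysosome (chr7:141929646-141941775, GRCm39), was at 135, 181 and 156 RPM in fresh MuSCs of mice 04, 05 and 06 and at 838, 1113 and 868 RPM in their myoblasts (log2 fold change 2.57 ± 0.19 SE, adjusted p = 2.03e-05). Every myoblast library was thus far above every MuSC library. Gm49369, an annotated gene on the same strand that shares 38% of the canonical Ctsd transcript, was at 7.09, 1.09 and 0 RPM and 43.0, 61.9 and 38.5 RPM in the same order, and reads could have been divided between the 2 genes. Ctsh, a cysteine aminopeptidase, rose from 12.7, 19.6 and 13.7 to 57.3, 72.6 and 50.4 RPM (1.91 ± 0.26 SE, adjusted p = 5.54e-04). Ctsw, best known from cytotoxic lymphocytes, was listed at 0 in all 3 MuSC libraries and at 3.38, 6.63 and 6.22 RPM in the myoblasts, the only libraries through which it passed the filter, so neither a fold nor a p is given. For leukocyte markers, 6 of 13 genes on the list were listed. Of these 6, 2 were called higher and 1 lower, with 4 fold changes above 0 and 2 below. Their summed level was 2.74 to 7.56 RPM in MuSCs and 15.7 to 24.9 RPM in myoblasts, and does not describe the list. Most of the myoblast sum came from Laptm5, a lysosomal membrane protein of leukocytes, at 0, 0.159 and 0 RPM in MuSCs and 20.0, 20.1 and 12.3 RPM in myoblasts. Laptm5 too passed the filter only through the myoblasts. Ptprc (CD45), which the sort selects against, was at 0.0677 to 0.533 RPM in all 6 libraries. The part of these markers in the Ctsw values was not tested.

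4 cathepsins fell, and these were cysteine proteases. Ctso (chr3:81839873-81867246) went from 164, 125 and 119.7 to 19.2, 8.73 and 9.62 RPM (-3.41 ± 0.31 SE, adjusted p = 5.64e-05), and Ctsz, a carboxypeptidase (chr2:174267304-174280832), from 958, 1002 and 877 to 291, 256 and 273 RPM (-1.79 ± 0.16 SE, adjusted p = 4.82e-05). Neither gene had a myoblast library near its MuSC libraries. Ctsl was at 279.6, 327 and 266 RPM in MuSCs and 199.6, 116 and 114 RPM in myoblasts (-1.06 ± 0.24 SE, adjusted p = 0.00776). Ctsb, an abundant endopeptidase and dipeptidase, was at 1290, 1137 and 949 RPM and 915, 525 and 441 RPM (-0.90 ± 0.27 SE, adjusted p = 0.0258). For both Ctsl and Ctsb, myoblasts of mouse 04 lay closest to the MuSC values. The Ctsb call ended when MuSC 04, MuSC 05, myoblast 05 or myoblast 06 was left out (adjusted p = 0.0797, 0.0744, 0.0853 and 0.081), and the adjusted p was 0.00066 without myoblast 04. Ctsa, Ctsc and Ctsf were not called, with log2 fold changes of -0.32, 0.19 and -0.35. The collagen-degrading Ctsk was not tested, since it was at 0.917, 0.162 and 1.20 RPM in MuSCs and 0.0743, 0.0444 and 0.119 RPM in myoblasts.

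Per kilobase of canonical transcript, the makeup of the cathepsin family changed from a Ctsz and Ctsb pool to a Ctsd pool. Ctsd was 8.18% to 11.2% of the summed cathepsin level in MuSCs and 49.2% to 63.1% in myoblasts. The share of Ctsz went from 36.1% to 39.2% in MuSCs to between 9.01% and 11.7% in myoblasts, and that of Ctsb from 30.4% to 34.8% to between 13.3% and 23.9%. Ctsd was the third cathepsin by level per kilobase in MuSCs, and the first in myoblasts. Summed over the family without regard to length, cathepsins were at 2558 to 3098 RPM in MuSCs and 1913 to 2511 RPM in myoblasts.

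**Figure D2:**
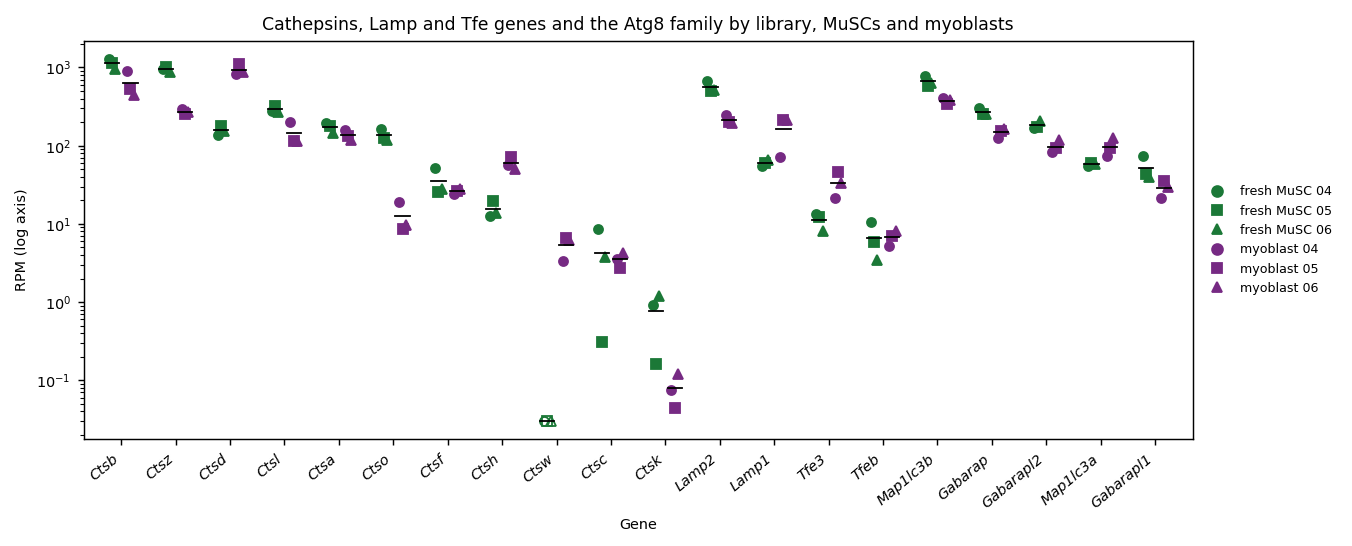
RPM on a log axis of 11 cathepsins, the Lamp and Tfe genes and the Atg8 family in each fresh MuSC library (green) and myoblast library (purple); symbols mark the mouse, black lines the mean of 3, and open symbols a value of 0 drawn at the axis floor. Ctsd, Ctsh, Lamp1 and Tfe3 lie higher in every myoblast library, and Ctsz, Ctso, Lamp2 and Map1lc3b lower.

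The Lamp genes moved apart. Lamp2 (chrX:37488520-37545340), whose splice forms include the receptor of chaperone-mediated autophagy, was at 676, 500.4 and 514 RPM in MuSCs and 247, 203 and 193 RPM in myoblasts (-1.39 ± 0.19 SE, adjusted p = 5.69e-04). Lamp1 (chr8:13209121-13227360) was at 54.4, 60.7 and 66.6 RPM in MuSCs and 72.2, 211 and 211 RPM in myoblasts (1.28 ± 0.39 SE, adjusted p = 0.0262), and myoblasts of mouse 04 were barely above the MuSCs. Leaving out any library other than myoblast 04 ended the Lamp1 call (adjusted p = 0.0556 to 0.0917), and without myoblast 04 the log2 fold change was 1.79 (adjusted p = 8.55e-05). The antisense neighbor Grtp1, whose exons cover 41.3% of the canonical Lamp1 transcript, was at 4.70, 7.52 and 4.15 and 14.4, 13.5 and 23.9 RPM, and its reads could not be told from those of Lamp1 where the 2 overlap. Lamp1 was 5.27% to 8.21% of the summed Lamp level per kilobase in MuSCs, and 16.8%, 41.9% and 43.0% in the myoblasts of mice 04, 05 and 06. These shares depend on the length used: with all annotated exons of each gene in place of the canonical transcript, the mean Lamp1 share was 21.0% in MuSCs and 62.0% in myoblasts.

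Among the transcription factors, Tfe3 rose and Tfeb was not called. Tfe3 was at 13.5, 12.1 and 8.05 RPM in MuSCs and 21.5, 46.2 and 33.3 RPM in myoblasts (1.47 ± 0.34 SE, adjusted p = 0.00858), with no overlap. Tfeb was at 10.5, 5.86 and 3.42 RPM and 5.16, 7.02 and 8.13 RPM (0.12 ± 0.41 SE, adjusted p = 0.828, 95% CI -0.80 to 1.04), and MuSC 04 was the highest of the 6 libraries.

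Tfeb and Tfe3 bind the E-box CACGTG, and bind best when it lies in a longer palindrome. RefSeq promoters (250 bases before the start site and 50 after, GRCm38.p6) were found for 50 of the 63 members. In these, the 6 bases CACGTG were present in 13 of 59 promoters (22%), against 7.15% of all 32851 promoters in the table and 9.4% of those of genes tested in the culture comparison. The 8-base form TCACGTGA, which contains the first motif, was present in 6 of the 59 (10.2%) against 0.974% of all promoters and 1.68% of those of genes tested in culture, and that form with a further G before it and C after it in 0 of 59 against 0.326% and 0.589%. All 3 motifs read the same on both strands. The 6 members with the 8-base form were Atg3, Atp6v0d1, Atp6v0e, Atp6v1a, Ctsa and Ctsd. Promoters of the 5 that were called in culture are printed to show where the motif lies, in capitals, on the coding strand, with positions counted from the start site; Ctsa, which was not called, held it at 2 places.
Ctsd, chr7:142387778-142388077 (minus strand), motif from position -99: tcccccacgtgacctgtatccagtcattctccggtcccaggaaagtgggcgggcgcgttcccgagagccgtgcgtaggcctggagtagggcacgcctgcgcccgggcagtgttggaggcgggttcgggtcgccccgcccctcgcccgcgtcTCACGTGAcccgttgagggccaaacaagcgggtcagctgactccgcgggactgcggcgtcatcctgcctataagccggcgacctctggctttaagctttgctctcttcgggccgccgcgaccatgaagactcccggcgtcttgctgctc
Atp6v1a, chr16:44139210-44139509 (minus strand), motif from position -132: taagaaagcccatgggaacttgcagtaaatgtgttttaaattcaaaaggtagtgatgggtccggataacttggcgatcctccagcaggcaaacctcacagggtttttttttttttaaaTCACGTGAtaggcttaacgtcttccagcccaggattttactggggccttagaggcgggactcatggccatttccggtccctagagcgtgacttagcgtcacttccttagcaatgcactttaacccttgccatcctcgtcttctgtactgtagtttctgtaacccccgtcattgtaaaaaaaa
Atp6v0d1, chr8:105566015-105566314 (minus strand), motif from position -4: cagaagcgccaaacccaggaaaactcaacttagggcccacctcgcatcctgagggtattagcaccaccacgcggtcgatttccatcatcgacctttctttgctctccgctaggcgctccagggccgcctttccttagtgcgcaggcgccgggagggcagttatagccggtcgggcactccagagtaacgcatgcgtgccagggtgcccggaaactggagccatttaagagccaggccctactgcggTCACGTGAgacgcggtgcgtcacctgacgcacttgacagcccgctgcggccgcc
Atp6v0e, chr17:26676146-26676445 (plus strand), motif from position 2: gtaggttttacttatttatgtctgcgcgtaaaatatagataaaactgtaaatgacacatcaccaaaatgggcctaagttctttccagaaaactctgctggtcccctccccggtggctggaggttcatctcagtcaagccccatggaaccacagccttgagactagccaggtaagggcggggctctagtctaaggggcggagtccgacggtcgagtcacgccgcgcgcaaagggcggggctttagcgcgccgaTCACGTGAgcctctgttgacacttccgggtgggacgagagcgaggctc
Atg3, chr16:45158579-45158878 (plus strand), motif from position -72: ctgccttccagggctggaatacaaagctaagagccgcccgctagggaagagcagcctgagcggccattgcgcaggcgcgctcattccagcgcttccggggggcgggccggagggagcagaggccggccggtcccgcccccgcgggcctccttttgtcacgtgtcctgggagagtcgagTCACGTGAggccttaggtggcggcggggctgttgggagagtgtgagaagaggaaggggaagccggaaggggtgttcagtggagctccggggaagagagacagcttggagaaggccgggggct
Of these 5, Ctsd rose and Atp6v1a, Atp6v0d1, Atp6v0e and Atg3 fell, so members that share the 8 bases changed in both directions. CACGTG without the 8-base form was present in the promoters of Lamp1 (at 4 places), Atg5, Atg7, Atg14, Atp6v0b, Ctsf and Ctsl. Of these, Lamp1 was called higher, Atg5 and Ctsl were called lower, and the rest were not called. Neither binding nor accessibility of these promoters was examined here.

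In the Atg8 family, all 5 genes had MuSC and myoblast values that did not overlap, and 4 of them were lower in myoblasts. Of all genes that reached the filter in both groups, 52.5% did not overlap, and 27.0% did so with lower values in myoblasts. Map1lc3b, the first of the family per kilobase of canonical transcript in both cell states, was at 774, 577 and 641 RPM in MuSCs and 413, 337 and 382 RPM in myoblasts (-0.81 ± 0.18 SE, adjusted p = 0.00675). Gabarap fell from 301, 256 and 255 to 126, 155 and 164 RPM (-0.87 ± 0.18 SE, adjusted p = 0.00499), and Gabarapl2 from 167, 175 and 204 to 82.7, 92.9 and 117 RPM (-0.90 ± 0.20 SE, adjusted p = 0.00629). These 3 genes fell by similar amounts. Gabarapl1 was at 73.4, 43.1 and 40.3 RPM and 21.5, 35.9 and 29.7 RPM, with a log2 fold change of -0.80 ± 0.30 SE, adjusted p = 0.0591, and was not called. Map1lc3a alone in the family rose, from 55.4, 60.2 and 58.5 to 74.3, 92.5 and 125 RPM (0.70 ± 0.23 SE, adjusted p = 0.0343). That call ended without any library other than myoblast 04 (adjusted p = 0.0779 to 0.14; 0.00706 without myoblast 04). Map1lc3a was 5.39% to 7.35% of the family level per kilobase in MuSCs and 13.1% to 19.9% in myoblasts. With all annotated exons as the length, the mean share of Map1lc3b was 28.3% rather than 67.3% in MuSCs and 23.0% rather than 60.7% in myoblasts, and the first of the family was then Gabarap in MuSCs (39.1%) and Map1lc3a in myoblasts (33.3%).

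The enzymes that attach Atg8 proteins, and the proteases that process them, were mostly not called. Of 7 conjugation genes 2 fell, and the other 5 were not called. Atg3, the E2-like enzyme of the cascade, was at 202, 201 and 172 RPM in MuSCs and 121, 96.4 and 101 RPM in myoblasts (-0.85 ± 0.18 SE, adjusted p = 0.00561). Atg5, part of the complex that places Atg8 proteins on the membrane, was at 74.7, 109.5 and 90.7 RPM and 61.9, 54.5 and 59.9 RPM (-0.62 ± 0.21 SE, adjusted p = 0.0401), but with the mouse as a replicate block its adjusted p was 0.0768, and without MuSC 05, MuSC 06, myoblast 05 or myoblast 06 it was 0.151, 0.0957, 0.13 and 0.0895. Atg7, the E1-like enzyme, was at 42.2, 32.8 and 18.6 RPM in MuSCs and 23.8, 22.6 and 21.9 RPM in myoblasts (-0.36 ± 0.32 SE, adjusted p = 0.379) with overlapping groups. Atg10, Atg12, Atg16l1 and Atg16l2 had log2 fold changes from -0.30 to 0.59, and the 4 Atg4 proteases from -0.46 to 0.52, none of them called.

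The kinases that start autophagy moved against each other. Ulk3 rose from 12.1, 7.24 and 6.95 to 19.6, 25.6 and 28.8 RPM (1.42 ± 0.31 SE, adjusted p = 0.0066), while Ulk2 fell from 35.0, 35.2 and 49.4 to 4.21, 25.1 and 18.7 RPM (-1.54 ± 0.54 SE, adjusted p = 0.0467). Ulk2 was lowest in myoblast 04, without which its log2 fold change was -0.83 (adjusted p = 0.031), and its call ended without any one of MuSC 04, 05 and 06 (adjusted p = 0.0805, 0.0918 and 0.133). Ulk1 was at 72.3, 40.2 and 18.0 RPM in MuSCs and 11.4, 33.4 and 20.0 RPM in myoblasts (-0.89 ± 0.52 SE, adjusted p = 0.196), and the spread between its MuSC libraries was as wide as the difference between groups. Ulk3 made up 17.7% to 20.0% of the summed Ulk level per kilobase in MuSCs and 49.4% to 73.3% in myoblasts. The Ulk partners Atg13 and Atg101 were not called (log2 fold changes 0.89 and 0.09), though Atg13 was called higher without myoblast 04 (1.29, adjusted p = 0.0116).

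Becn1, the scaffold of the lipid kinase complex, fell from 320.3, 312 and 237 to 196, 178 and 168 RPM (-0.67 ± 0.19 SE, adjusted p = 0.019), a call that ended without MuSC 04, MuSC 05, myoblast 05 or myoblast 06 (adjusted p = 0.0597, 0.0753, 0.0652 and 0.0656). Most of the canonical Becn1 transcript (54.1%) lies opposite exons of Cntd1, which was below 2 RPM in every library. Atg9a, the membrane protein that scrambles lipids on the growing membrane, rose from 17.4, 10.5 and 16.2 to 27.7, 45.0 and 52.2 RPM (1.42 ± 0.32 SE, adjusted p = 0.00699). Its paralog Atg9b, which passed the filter only through the myoblasts, was at far lower levels, 0 to 0.18 RPM in MuSCs and 0.58 to 1.23 RPM in myoblasts. Atg14, Atg2a and Atg2b were not called. Sqstm1 (p62), a receptor that carries ubiquitinated cargo into autophagosomes, was at 924, 504 and 527 RPM in MuSCs and 884, 741 and 662 RPM in myoblasts (0.27 ± 0.25 SE, adjusted p = 0.412), with MuSC 04 above all 3 myoblast libraries.

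**Figure D3:**
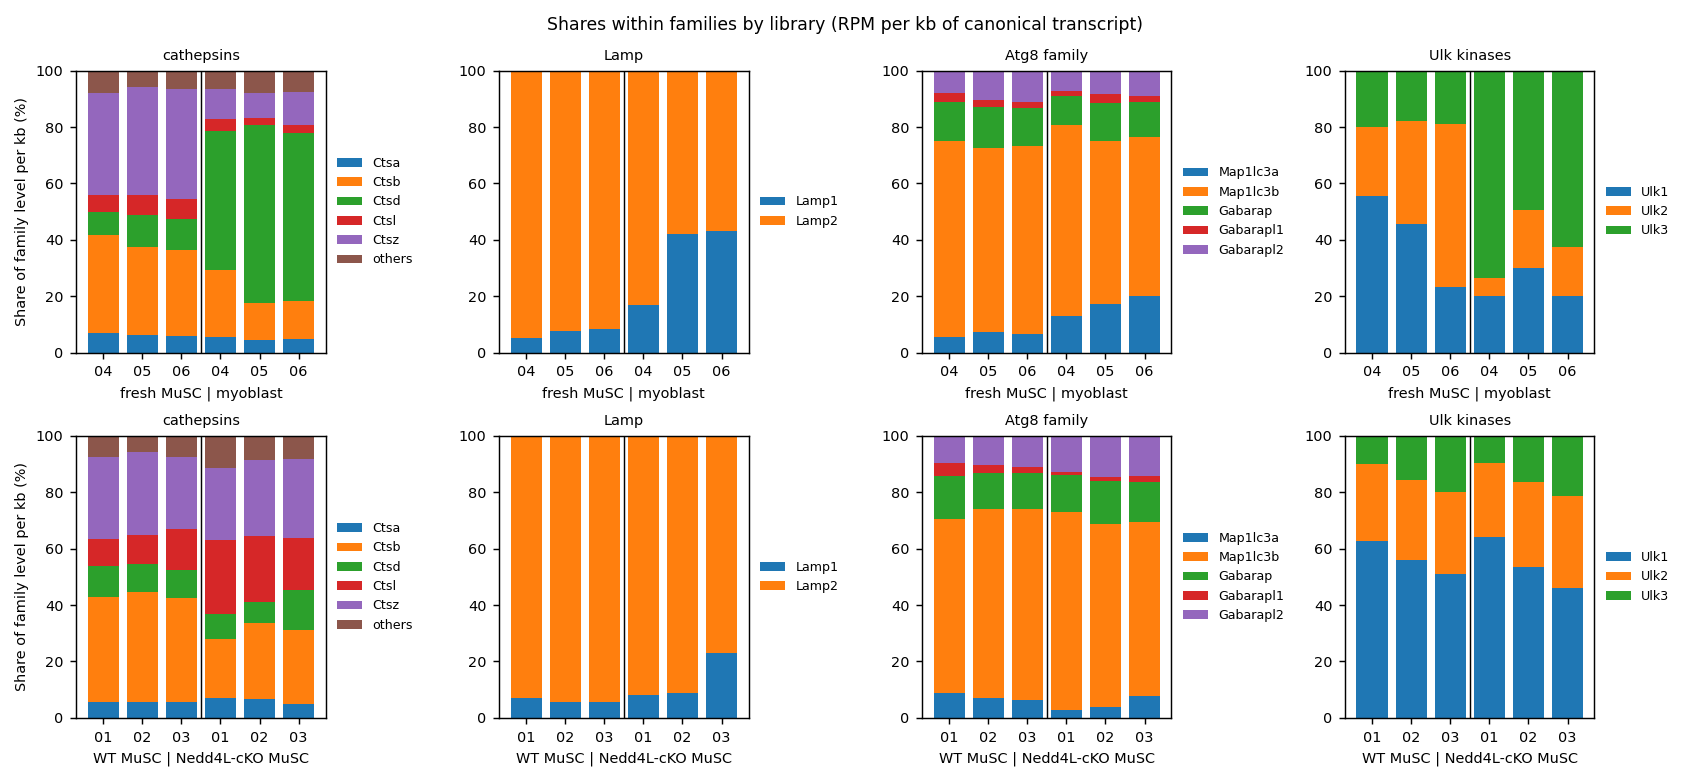
Share (%) of each gene in the summed RPM per kilobase of its family, in each library (x axis: replicate number; the vertical line separates the groups). In the upper row, myoblasts hold more of Ctsd (49.2% to 63.1%), Lamp1, Map1lc3a and Ulk3 than fresh MuSCs. In the lower row, the Ctsl share is 18.4% to 26.4% in Nedd4L-cKO and 9.81% to 14.6% in WT MuSCs, though no member was called between genotypes.

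Of the 6 v-ATPase genes called, 5 were among the 8 listed under Atp6v0, the symbol of the membrane sector V0 (2 higher, 3 lower), and 1 was in the V1 sector. The 8 and the 3 called lower include the pseudogene Atp6v0c-ps2, which encodes no subunit. Of all genes that reached the filter in both groups, 40.4% were called. The 2 Atp6v0a genes tested, for a subunits that steer the pump to its compartment, both rose: Atp6v0a2 from 81.1, 62.8 and 52.6 to 166, 192 and 138 RPM (1.33 ± 0.22 SE, adjusted p = 0.00171) and Atp6v0a1 from 11.2, 21.1 and 20.2 to 24.0, 45.9 and 34.8 RPM (0.96 ± 0.34 SE, adjusted p = 0.0473). Of the summed level per kilobase of these 2 genes, Atp6v0a2 was 73.7% in MuSCs and 78.6% in myoblasts (means of 3). Any a subunit gene without an Atp6v symbol was not counted in these shares. Atp6v0d1, which couples the 2 sectors, fell from 77.1, 63.4 and 70.4 to 49.7, 44.1 and 40.5 RPM (-0.64 ± 0.20 SE, adjusted p = 0.0295), and Atp6v0e from 259, 298 and 366 to 250.5, 160.5 and 194 RPM (-0.62 ± 0.22 SE, adjusted p = 0.0492). With the replicate block Atp6v0d1 and Atp6v0e were no longer called (adjusted p = 0.0581 and 0.0726). With single libraries left out, the adjusted p was 0.0155 to 0.173 for Atp6v0a1 and 0.017 to 0.107 for Atp6v0d1, both called only without myoblast 04, and 0.01 to 0.181 for Atp6v0e, which was called only without MuSC 04 or myoblast 04. The proteolipid gene Atp6v0c, whose product forms the proton-carrying ring, was at 214, 218 and 208 and 278, 249 and 264 RPM and was not called. Its pseudogene Atp6v0c-ps2 was called lower (4.06, 7.98 and 3.34 against 1.90, 0.488 and 0 RPM), but shares sequence with Atp6v0c, so how reads were divided between them is uncertain.

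In the V1 sector, the catalytic subunit Atp6v1a fell from 149, 151 and 149.8 to 102, 84.4 and 68.1 RPM (-0.84 ± 0.20 SE, adjusted p = 0.00923), whereas its partner in the ATP-splitting ring, Atp6v1b2, had a log2 fold change of -0.05 (95% CI -0.48 to 0.37). Atp6v1c2, which passed the filter only through the myoblasts, was listed at 0 in MuSCs and at 0.32 to 0.67 RPM in myoblasts. Its isoform Atp6v1c1 made up 98.2% of the C subunit level per kilobase in myoblasts. Likewise Atp6v1e1 made up 99.8% of the E subunit and Atp6v1g1 99.2% of the G subunit in MuSCs, and 99.3% and 98.8% in myoblasts (means of 3). For Atp6v0e the share was 98.1% against Atp6v0e2 in MuSCs and 97.7% in myoblasts. Thus for subunits e, C, E and G a single gene supplied nearly all of the level of the members in both states. Among the Atp6v0a genes this was not so. Myoblasts of mouse 04 were the highest of the 3 myoblast libraries for 7 of the 9 V1 genes whose mean reached 5 RPM (77.8%, against 43.4% of all genes at that level). Without that library Atp6v1g1 (492, 567 and 528 RPM in MuSCs and 495, 293 and 332 RPM in myoblasts) was called lower with a log2 fold change of -0.76 (adjusted p = 0.00399), as were Atp6v1f (-0.53, adjusted p = 0.0282) and, in V0, Atp6v0b (-0.55, adjusted p = 0.0438). The median log2 fold change of the 19 v-ATPase genes was -0.05, and 0.09 when each library was scaled to its own total.

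Other genes of the pathway were taken from lists that did not use the symbol rule, and 68 of 130 were called (36 higher, 32 lower), or 52.3% against 40.4% of all genes that, like each of the 130, reached the filter in both groups (19.6% higher, 20.7% lower). By list, calls were made for 4 of 14 initiation and lipid kinase genes (4 higher), 9 of 15 cargo receptors (4 higher, 5 lower), 20 of 39 hydrolases and their activators (12 higher, 8 lower), 16 of 25 lysosomal membrane proteins (7 higher, 9 lower), 6 of 11 further v-ATPase subunits and assembly factors (2 higher, 4 lower), 11 of 22 regulators of mTORC1 and Tfeb (6 higher, 5 lower) and 2 of 4 cathepsin inhibitors (1 higher, 1 lower). Wipi1, which binds the lipid mark of the growing membrane, and Rubcn, a brake on the lipid kinase, rose by 2.14 and 1.82 on the log2 scale. The mitophagy receptor Bnip3 rose by 2.73 and the receptor Optn by 2.16. Among other lysosomal hydrolases and their activators, Psap, the precursor of the saposins, rose by 2.65. In the membrane, the chloride-proton exchanger Clcn7 and Laptm4a rose by 2.21 and 1.84. Of the mTORC1 and Tfeb regulators, Akt1s1, an inhibitory partner of mTORC1, rose by 3.09, and Foxo3, a transcription factor that acts on autophagy genes, had a log2 fold change of -2.62. The v-ATPase interactor Ncoa7 fell (log2 fold change -2.53) and Rogdi rose by 1.71. The cathepsin inhibitor Cst6 went from 0.01 to 0.36 RPM in MuSCs to between 56.6 and 88.6 RPM in myoblasts, and Cst3, the cystatin C gene, fell from 429.7, 544 and 559.6 to 352, 239.7 and 259 RPM.

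Markers of other states and cells moved with the same comparison. Summed over 10 genes of mature myofibers, of which 7 were called higher, the level was 127 to 364 RPM in MuSCs and 8960 to 20470 RPM in myoblasts. Over 10 genes of fibro-adipogenic progenitors (1 called higher, 5 lower) it was 2175 to 2424 RPM in MuSCs and 128 to 194 RPM in myoblasts. Over 6 pericyte and smooth muscle genes it was 1122 to 1421 RPM and 1660 to 2427 RPM. Of these 6 genes, 0 were called higher and 1 lower, with 3 fold changes above 0 and 3 below, so the sum does not describe the list. Over 5 endothelial genes (0 called higher, 1 lower) it was 43.8 to 46.5 RPM and 11.8 to 21.7 RPM. Only 4 of them were tested, with 2 fold changes above 0 and 2 below, so this sum does not describe its list either. The part of all these markers in the changes of the members was not tested.

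Between Nedd4L-cKO and WT MuSCs, no member was called. The rule was that of the study's heatmap (adjusted p of at most 0.05 in limma, at least 1 on the log2 scale and a mean of at least 5 RPM), which called 0 of 58 members and 0.653% of all 15304 tested genes. At an unadjusted p under 0.05 there were 10 members (3 higher, 7 lower), against 14.6% of all tested genes (7.51% higher, 7.13% lower). The WT and Nedd4L-cKO values did not overlap for 12 members, 5 of them higher and 7 lower (all genes: 19.3%, of which 9.75% higher and 9.59% lower). The smallest adjusted p was 0.188, for Ctsb. The median log2 fold change was 0.04 over the members, -0.18 over the autophagy genes, 0.11 over the v-ATPase genes and 0.16 over the cathepsins, against 0.00 over all genes. For 25 of the 58 members the 95% confidence interval lay within 1 on the log2 scale on either side of 0, so for these a change of that size lay outside the interval.

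**Figure D4:**
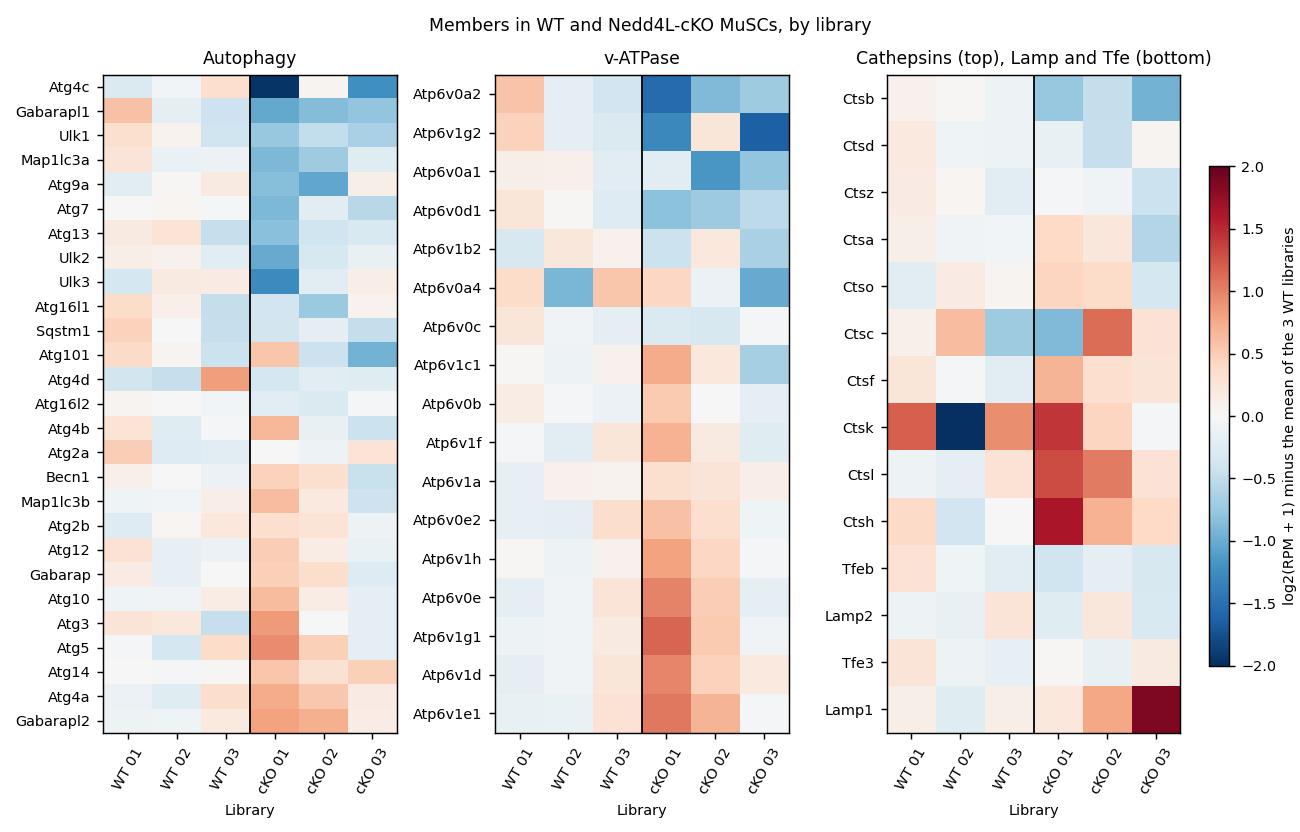
Members (rows, sorted by fold change within class) in each WT and Nedd4L-cKO (cKO) library, as log2(RPM + 1) minus the mean of the 3 WT libraries, with the color scale capped at 2 on either side. Most V1 genes, toward the foot of the v-ATPase panel, are red in cKO 01 and 02 but close to WT in cKO 03; Ctsb and Gabarapl1 are blue in all 3 Nedd4L-cKO libraries.

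The 6 members with the smallest p were 2 cathepsins, 2 V0 subunits, Gabarapl1 and Lamp1. Ctsb was at 1200, 1140 and 1044 RPM in WT 01, 02 and 03 and at 664, 810.4 and 585 RPM in Nedd4L-cKO 01, 02 and 03 (log2 fold change -0.73 ± 0.23 SE, adjusted p = 0.188), without overlap. Atp6v0a2 was at 57.4, 33.1 and 29.2 RPM and 12.4, 20.1 and 23.1 RPM in the same order (-1.05 ± 0.34 SE, adjusted p = 0.189). Gabarapl1 was at 111, 64.4 and 54.8 RPM in WT and 35.6, 39.5 and 41.7 RPM in Nedd4L-cKO MuSCs (-0.90 ± 0.29 SE, adjusted p = 0.195). All 3 of these genes were lower in every Nedd4L-cKO library, and WT 01 was the highest library for each. Ctsl was at 391, 365 and 512 RPM in WT and 1031, 862 and 510.1 RPM in Nedd4L-cKO MuSCs (0.88 ± 0.29 SE, adjusted p = 0.206), and Nedd4L-cKO 03 lay within the WT range. Atp6v0d1 was at 49.3, 42.1 and 34.6 RPM and 23.1, 24.7 and 28.7 RPM (-0.69 ± 0.26 SE, adjusted p = 0.264). Lamp1 was at 64.6, 50.3 and 64.7 RPM in WT and 69.2, 103 and 219 RPM in Nedd4L-cKO MuSCs (0.95 ± 0.37 SE, adjusted p = 0.271), with Nedd4L-cKO 03 far above the rest. In the same order, the pericyte gene Rgs5 was at 280.1, 569.8 and 1034 and 355, 1270 and 1945 RPM, and the 6 pericyte and smooth muscle genes summed to 1223 to 1967 RPM in WT and 2188 to 3305 RPM in Nedd4L-cKO MuSCs, again highest in Nedd4L-cKO 03; their part in the Lamp1 values was not tested.

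The remaining cathepsins differed by less than the spread between libraries or missed the threshold. Ctsz was at 670.1, 617 and 518 RPM in WT and 579, 572 and 446 RPM in Nedd4L-cKO MuSCs (log2 fold change -0.18, 95% CI -0.70 to 0.34). Ctsd, which rose in culture, was at 156, 129 and 127 RPM and 123, 99.0 and 142 RPM (-0.18, 95% CI -0.72 to 0.35). Ctsh was higher in every Nedd4L-cKO library (12.2, 6.77 and 9.01 against 30.2, 15.3 and 12.3 RPM, 0.91 ± 0.38 SE, adjusted p = 0.301) without being called. As shares of the family per kilobase, Ctsb was 36.8% to 39.2% in WT and 21.0% to 27.2% in Nedd4L-cKO MuSCs, and Ctsl 9.81% to 14.6% and 18.4% to 26.4%. Both shares separated the groups.

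Ctsk was far higher in this table than in the culture table, at 32.2, 2.32 and 26.7 RPM in WT and 38.2, 18.6 and 13.1 RPM in Nedd4L-cKO MuSCs (0.61 ± 0.79 SE, adjusted p = 0.772). The 2 tables were normalized apart, so this contrast is a description. WT 02 was the lowest library for Ctsk, as it was for Dcn, a gene of fibro-adipogenic progenitors (1091, 193 and 1237 RPM in WT and 2208, 672 and 210.0 RPM in Nedd4L-cKO MuSCs). The 10 genes of these progenitors summed to 1858 to 3903 RPM in WT and 1935 to 4107 RPM in Nedd4L-cKO MuSCs. The gate against SCA1 should remove these cells, and Ly6a, the SCA1 gene, was at 0 to 2.69 RPM in all 6 libraries. The part of such cells in the Ctsk values was not tested.

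Lamp2 was at 585, 566 and 748 RPM in WT and 533, 736 and 506 RPM in Nedd4L-cKO MuSCs (-0.11, 95% CI -0.65 to 0.44). Tfeb was at 3.52, 2.50 and 2.20 and 1.80, 2.27 and 1.95 RPM (-0.30, 95% CI -1.04 to 0.43) and Tfe3 at 16.3, 12.6 and 11.9 and 13.7, 12.1 and 15.4 RPM (0.02, 95% CI -0.62 to 0.66). Neither transcription factor differed beyond the spread between libraries.

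Within autophagy, the 5 genes of the Ulk complex all had fold changes below 0 (-0.63 to -0.27), and only Ulk1 had an unadjusted p under 0.05. Ulk1 was at 77.8, 65.9 and 47.4 RPM in WT and 36.6, 44.0 and 39.3 RPM in Nedd4L-cKO MuSCs (-0.63 ± 0.26 SE, adjusted p = 0.304), without overlap, and Ulk2 at 36.8, 36.3 and 29.3 and 16.3, 27.0 and 30.6 RPM (-0.49 ± 0.30 SE, adjusted p = 0.477), with overlap. In the Atg8 family, Map1lc3a was lower in every Nedd4L-cKO library at 41.4, 47.3 and 65.7 RPM against 92.6, 71.0 and 71.3 RPM (-0.61 ± 0.26 SE, adjusted p = 0.317). Gabarapl2 was at 209, 210.2 and 258 RPM in WT and 395, 369 and 248 RPM in Nedd4L-cKO MuSCs (0.56 ± 0.26 SE, adjusted p = 0.344), a difference in the opposite direction. The 2 Atg8 genes with the highest level per kilobase of canonical transcript, Map1lc3b (715, 725 and 830.1 against 1156, 863 and 564 RPM, 0.13, 95% CI -0.48 to 0.74) and Gabarap (349, 276 and 310.1 against 432, 396 and 258 RPM, 0.19, 95% CI -0.39 to 0.76), overlapped between genotypes. Atg4c, a protease that trims Atg8 proteins, had the largest fold change of the class, -1.05 ± 0.45 SE, adjusted p = 0.314, and ranged from 5.24 to 24.2 RPM within the Nedd4L-cKO group.

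Becn1 was at 199.6, 187 and 170.1 RPM in WT and 255, 232 and 136 RPM in Nedd4L-cKO MuSCs (0.12, 95% CI -0.49 to 0.72). Of the conjugation genes, Atg5 was at 74.1, 58.9 and 97.9 and 146, 106 and 66.5 RPM (0.42, 95% CI -0.28 to 1.11) and Atg7 at 22.7, 23.3 and 22.0 and 11.7, 19.2 and 15.1 RPM (-0.56 ± 0.29 SE, adjusted p = 0.397). The Atg7 groups did not overlap, and its p missed the threshold. Sqstm1 was at 1149, 843 and 607 RPM in WT and 652, 729 and 601 RPM in Nedd4L-cKO MuSCs (-0.35, 95% CI -0.94 to 0.24), with WT 01 the highest library. The other 12 autophagy genes had log2 fold changes from -0.59 to 0.48.

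The summed v-ATPase level spread more widely among the Nedd4L-cKO libraries than among the WT libraries. Summed over 17 genes, the level was 1841, 1796 and 2029 RPM in WT 01, 02 and 03 and 3089, 2294 and 1705 RPM in Nedd4L-cKO 01, 02 and 03. Atp6v1g1, a gene of the stalk of V1, was at 371, 377 and 449 RPM in WT and 896, 569 and 377 RPM in Nedd4L-cKO MuSCs (0.54 ± 0.31 SE, adjusted p = 0.451), and Atp6v1e1 at 102, 102 and 138 and 237, 182 and 111 RPM (0.58 ± 0.30 SE, adjusted p = 0.409). Nedd4L-cKO 01 was the highest of the 3 for 7 of the 8 V1 genes whose mean reached 5 RPM, and Nedd4L-cKO 03 the lowest for all 8. Over all genes at that level, those libraries held these places for 42.1% and 42.6%. The median difference of the 8 V1 genes from the WT mean was 0.78, 0.34 and -0.05 on the log2 scale in Nedd4L-cKO 01, 02 and 03. Over 9 V1 genes the median fitted fold change was 0.24, and 0.47 without Nedd4L-cKO 03. The total of normalized counts was also highest in Nedd4L-cKO 01 (50687122) and lowest in Nedd4L-cKO 03 (40323468), and with each library scaled to its own total that median was 0.11.

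**Figure D5:**
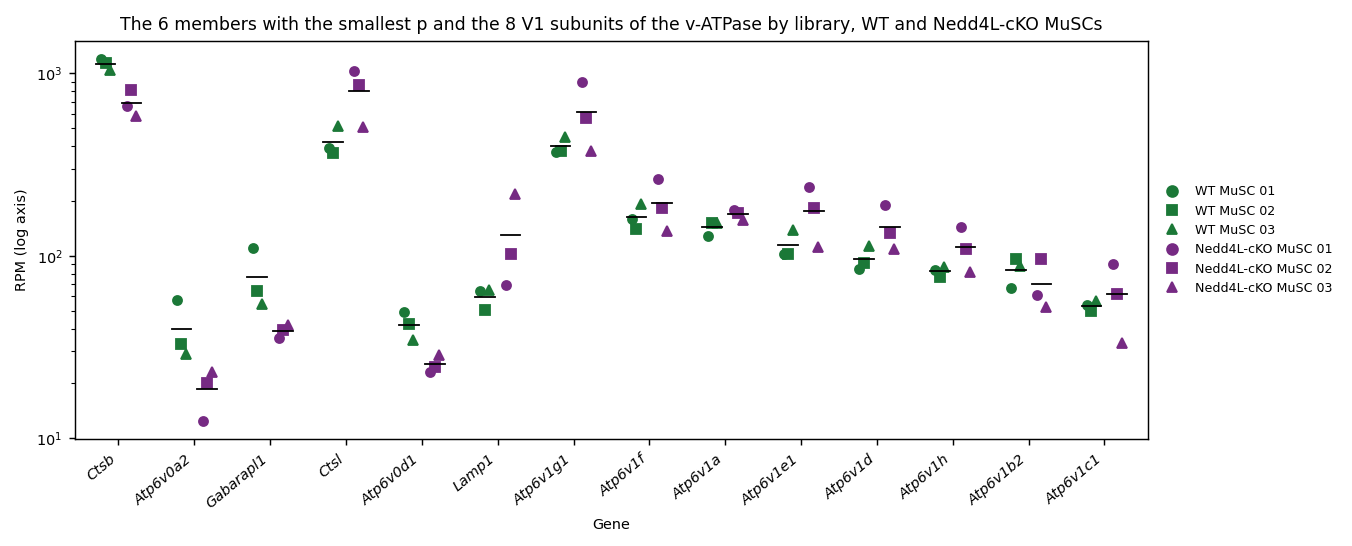
RPM on a log axis of the 6 members with the smallest p and of the 8 V1 genes above 5 RPM on average, in WT (green) and Nedd4L-cKO (purple) MuSC libraries, with black lines for the mean of 3. Each V1 gene is lowest in Nedd4L-cKO 03 (triangles) among the Nedd4L-cKO libraries, and Ctsb is lower in all 3 of them than in any WT library.

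In the V0 sector, the a subunit gene Atp6v0a1 was at 12.6, 12.5 and 9.72 RPM in WT and 9.77, 4.60 and 6.27 RPM in Nedd4L-cKO MuSCs (-0.72 ± 0.35 SE, adjusted p = 0.366). Of the summed level per kilobase of the Atp6v0a genes, Atp6v0a2 was 69.0% in WT and 63.9% in Nedd4L-cKO MuSCs (means of 3). The shares of Atp6v0a1 were 27.5% and 31.1%, and those of Atp6v0a4 3.57% and 4.98%. Atp6v0e was at 244, 262 and 329.8 RPM and 550.5, 389 and 242 RPM (0.43 ± 0.31 SE, adjusted p = 0.553), with the same order of Nedd4L-cKO libraries as the V1 genes. Atp6v0b and Atp6v0c had log2 fold changes of 0.11 and -0.21. As in culture, Atp6v0e and Atp6v1g1 made up a mean of at least 96.7% of their subunit's level per kilobase in either genotype. With all annotated exons as the length, the mean for Atp6v0e was 93.9% in WT and 94.4% in Nedd4L-cKO MuSCs. Atp6v1c1 and Atp6v1e1 were the only members listed for subunits C and E in this comparison. Their shares were thus fixed at 100% and say nothing about isoforms.

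Markers of other states also differed between these libraries. Over 10 myofiber genes the summed level was 171 to 359 RPM in WT and 438 to 552 RPM in Nedd4L-cKO MuSCs, and over 6 genes of cycling cells 68.2 to 220 RPM and 262 to 389 RPM. The 8 MuSC markers summed to 5589 to 9477 RPM and 5012 to 8203 RPM. Their part in the values of the members was not tested.

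Of the other genes of the pathway, 0 of 130 were called between genotypes and 17 had an unadjusted p under 0.05 (7 higher, 10 lower), near the 14.6% of all tested genes. The smallest adjusted p was 0.0729, for Lgmn, the lysosomal asparaginyl endopeptidase that processes cathepsins, at 76.2, 58.5 and 42.6 RPM in WT and 21.7, 28.6 and 21.5 RPM in Nedd4L-cKO MuSCs. Lgmn was chosen after its values were seen.

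The 2 comparisons share no libraries, so their values can be set side by side. Of 56 members tested in both, 23 had fold changes of the same sign (41.1%), against 48.0% of 14343 genes. Ctsb was lower in myoblasts than in fresh MuSCs and lower in Nedd4L-cKO than in WT MuSCs, and Lamp1 higher in both (log2 fold changes 1.28 and 0.95). Ctsl was lower in myoblasts (-1.06) but had a positive fold change in Nedd4L-cKO MuSCs (0.88), and Atp6v0a2 rose in myoblasts (1.33) but had a negative one there (-1.05). None of the genotype values in these pairs passed the threshold.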

How the data were processed

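Libraries of 1000 sorted cells or myoblasts were made with SMART-seq and read as single ends of 75 bases. Per the labels and the study's methods, the authors quantified transcripts with kallisto 0.46.1 on GENCODE M28, summed them to genes with tximport, and deposited 1 table per comparison holding a signal for each gene and library: counts divided by the normalization factors of DESeq2. Read depth is not recoverable (23.5% to 59.4% of low values fell on whole steps). Columns with fold changes and p-values of the authors, and 18 further columns with RPM or repeated values, were not used.

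Each table was fitted apart with limma 3.58.1 in R 4.3.3 on log2(RPM + 1), with the trend and robust options, over all genes that reached 10 normalized counts in 3 libraries, and p-values were adjusted by Benjamini-Hochberg over these genes. Fold changes are on that scale and so understate changes of low genes. Calls were made at an adjusted p of 0.05, and between genotypes also at a log2 fold change of 1 and a mean of 5 RPM. The fit was tested on simulated data. p-values measure the spread between 3 libraries a group, each from 1 mouse. In the culture table, numbers 04, 05 and 06 pair MuSCs and myoblasts, since the submitters' design text says that both came from the same mice and the labels give both libraries of a number a common code, although the deviations of paired libraries from their group means hardly correlated (r = -0.0314, -0.00502 and 0.018).

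Levels between genes were compared as RPM per kilobase of the Ensembl canonical transcript (GENCODE M39, GRCm39), a length chosen after the data were seen. Positions given in GRCm39 come from the same annotation, and promoters from RefSeq (GRCm38.p6). Whether counting used strand is not given in the sources used here, so reads of overlapping genes cannot be told apart. Members and lists were chosen with earlier results of these data known. Always named were Tfeb, Tfe3, Ulk1, Ulk2, Becn1, Atg5, Atg7, Sqstm1, the Atg8 genes, Lamp1, Lamp2, Ctsb, Ctsd, Ctsk, Ctsl, Ctss and Ctsz, then in each class the 3 members called with the largest changes each way, the 6 smallest p between genotypes, v-ATPase isoforms, and for each list outside the rule the 2 largest called changes, with 1 such gene not reported here. Other members were named after their values were seen, to complete a family. Protein sequences were not used here.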

Additional observations from a re-analysis of the deposited data

How the results depend on the processing

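Between myoblasts and fresh MuSCs, 28 members were called (25 without the 3 that passed the filter only through the myoblasts), and 23 to 28 under another scaling, pseudocount, filter or variance model and with the replicate block. Asking also for a log2 fold change of at least 1 left 14 of 61 members (8 higher, 6 lower), against 4880 of all 15345 tested genes. The 14 include Ctsw, which passed the filter only through the myoblasts, and 13 remain without it. With single libraries left out, 17 to 31 members were called, fewest without myoblast 05 or 06 and most without myoblast 04. The replicate block called 25 members and ended the calls of Atg5, Atp6v0d1 and Atp6v0e, and of no other member. The v-ATPase median of -0.05 was 0.09 with each library scaled to its own total and -0.26 without myoblast 04. The number of genes called in all ranged from 4598 to 6594.

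Between genotypes, 0 of 58 members were called by limma in every alternative, while the number of all genes called ranged from 17 (without Nedd4L-cKO 02) to 195 (10 normalized counts in every library), against 100. Without a fold and level threshold, 120 genes (0.784%) passed, and 0 members. Same-numbered libraries came from different mice (r of deviations 0.0192, -0.0232 and -0.181), and the replicate block called 62 genes and 0 members. The autophagy median of -0.18 was -0.31 with own totals and -0.08, -0.06 and -0.05 without WT 01, WT 03 or Nedd4L-cKO 03. No member's call changed direction in either comparison. The cause of these shifts was not tested. Without read counts, precision at low levels is unknown.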
